A study of Mus musculus with 48 samples.

Results

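Untreated B16 tumors grown in iNOS KO mice were compared with untreated B16 tumors grown in WT mice, gene by gene. The comparison uses 6 of the 48 tumors of the series, 3 from iNOS KO mice (replicates 1, 2 and 4) and 3 from WT mice (replicates 1, 2 and 3), chosen by their sample titles. WT mice were C57BL/6J, and both strains arrived at 4 weeks of age and were housed for 2 weeks. The B16-D5 subclone of the mouse melanoma line B16 was injected under the skin of the flank 8 days before day 0, when treatment began for other animals. Tumors given antibody were collected on day 7. No day is stated for the untreated tumors, and whether they were collected on that day is not known here. All 6 animals received neither antibody. The deletion is in the host only, because the injected melanoma cells are the same in both groups and carry their own Nos2 gene. Tumors of the same experiment from KO and WT mice given control IgG or anti-PD-1 (3 tumors in each of 4 groups) entered the same fit. There they add to the estimate of the spread and bear on which genes are tested. They also serve to set the untreated difference beside theirs. The labels give no litter or date for the tumors. The p-values measure a difference against the spread between tumors within the groups of that fit.

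Inducible nitric oxide synthase (iNOS, gene Nos2) makes nitric oxide from arginine, mostly in macrophages and other cells that interferon-γ (IFN-γ) or microbial products have activated. IFN-γ, secreted by T and NK cells, turns on a wide set of genes. These include the transcription factor Irf1, chemokines that attract T cells, 2 families of large GTPases that defend cells against intracellular microbes (guanylate-binding proteins and immunity-related GTPases), subunits of the immunoproteasome that cut peptides for MHC class I, and Cd274, which encodes PD-L1. Type I interferons act through a receptor of their own and induce an overlapping set that includes the Ifit genes.

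The untreated libraries held between 23267834 and 39675612 counts on genes. A level is given below in CPM, the usual scaling of counts to the TMM-adjusted library total, and a difference as the log2 fold change of KO over WT with its standard error (SE) from edgeR's quasi-likelihood fit. A gene was called at a Benjamini-Hochberg adjusted p under 0.05 over all 30837 genes tested. One library stood apart. Genes of olfactory, vomeronasal and taste receptors, which a tumor has no known use for, summed to 870 CPM in KO replicate 1, to 76.2 and 64.4 CPM in KO replicates 2 and 4, and to 24, 35.5 and 16.3 CPM in the WT tumors. The highest of the other 12 libraries of the experiment were WT anti-PD-1 replicates 3 and 4, with 2828 and 1172 CPM. Without KO replicate 1, 12 of 38 list medians moved by more than the pooled SD of the list's level between untreated tumors of a group. Medians of several lists are given with and without this library, and a median given once may also depend on it.

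Most genes called were higher in the KO tumors. Of the 30837 genes tested, 180 were called higher in the KO tumors (0.584%) and 1 was called lower (0.00324%), 0.587% in all. At an unadjusted p under 0.05 there were 4038 genes above 0 (13.1%) and 1040 below 0 (3.37%). The log2 fold changes of the 180 ran from 0.63 to 5.26, with a median of 1.3. The genes called were 155 protein-coding genes and 26 of other types, 14 of them pseudogenes. In 180 of the 181 the 3 KO and 3 WT values did not overlap. The genes were called from these same values, so that count says nothing of its own. Of all genes tested, 9.73% had KO above WT without overlap, 8.0% had KO below WT, and 17.7% either. Over all genes tested the median log2 fold change was 0.49, and 67.1% were above 0. That median was 0 with KO replicate 1 left out, and -0.05 over the 15400 genes with a mean of at least 1 CPM. With KO replicate 1 left out, 200 genes were called higher and 2 lower, and 116 of the 181 were among them. With the log2 of the receptor level as a covariate, 0 genes were called. The split between the directions also moved, to 1131 higher and 218 lower without the filter on low counts, and to 380 higher (1.15%) and 224 lower (0.677%) when WT anti-PD-1 replicates 3 and 4 were left out of the fit, a setting chosen after seeing the data. All 181 kept their direction in each of the other fits that were run. Those fits reuse the same untreated tumors, so a kept direction is not separate evidence.

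Part of the genes called higher could be sorted by list into 3 groups. The first is interferon-inducible, with 18 genes that belong to the IFN-γ, type I interferon or GTPase lists. The second is made of 27 cytosolic ribosomal proteins, and the third of 22 subunits of the respiratory chain, the mitochondrial ribosome and the mitochondrial import machinery. Another 5 encode further proteasome subunits, 2 encode spliceosomal Sm proteins, and 106 are in none of these lists. The GTPase lists and all lists of the third group were added after values were seen. The grouping is thus partly drawn from the calls that it describes. The interferon group differs from the others in transcript length. None of its 18 genes has a main transcript of 1000 nt or less. Among the ribosomal proteins 21 of the 27 do, as do 16 of the 22 mitochondrial proteins and 103 of all 180. Psme2, 1 of the 5 further proteasome genes, is plotted below with the interferon-inducible genes and has a main transcript of 962 nt. The absence of short transcripts thus holds for the 18 as grouped here, without Psme2. Leaving out 1 tumor moved the calls of all 3 groups. Without WT replicates 1, 2 and 3 in turn, 10, 14 and 12 of the 18 interferon-inducible genes, 6, 12 and 17 of the 27 ribosomal proteins and 9, 13 and 14 of the 22 mitochondrial proteins remained called. Without KO replicates 1, 2 and 4 in turn, these were 18, 18 and 14 interferon-inducible genes, 17, 21 and 26 ribosomal proteins and 17, 19 and 22 mitochondrial proteins.

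Of 32 IFN-γ response genes, 12 rose in KO tumors (37.5%, against 0.584% of all genes tested) and none fell. The 12 are Irf1, Cxcl9, Cd274, Batf2, Psmb8, Psmb9, Psmb10, Gbp2, Gbp4, Gbp6, Igtp and Iigp1. Of the 32 members 31 were above 0, and their median was 1.31 on the log2 scale, where that of all genes tested was 0.49. Without KO replicate 1 the median was 1.41 with 16 members called, and without WT replicate 1 it was 1.22 with 6 called. Cxcl9, a chemokine that attracts T cells through CXCR3, was at 41.7, 25.2 and 104.3 CPM in the KO tumors and at 3.05, 5.19 and 3.76 CPM in the WT tumors. Its log2 fold change was 3.84 (SE 0.638, edgeR adjusted p = 0.0097). Every KO tumor was several times above every WT tumor, and KO replicate 4 was the highest. Irf1, the transcription factor that amplifies the IFN-γ program, was at 52.0, 41.1 and 104.1 CPM in KO and at 19.5, 27.7 and 23.2 CPM in WT tumors (log2 fold change 1.48, SE 0.328, edgeR adjusted p = 0.041). Cd274 was at 33, 30.1 and 64.8 CPM in KO and at 13.9, 18.1 and 23.2 CPM in WT tumors (log2 fold change 1.21, SE 0.274, edgeR adjusted p = 0.0452). In both genes the KO and WT tumors were fully separated, and replicate 4 was again the highest. Batf2, a leucine zipper factor of activated macrophages, rose by a log2 fold change of 2.09 (SE 0.375).

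**Figure D1:**
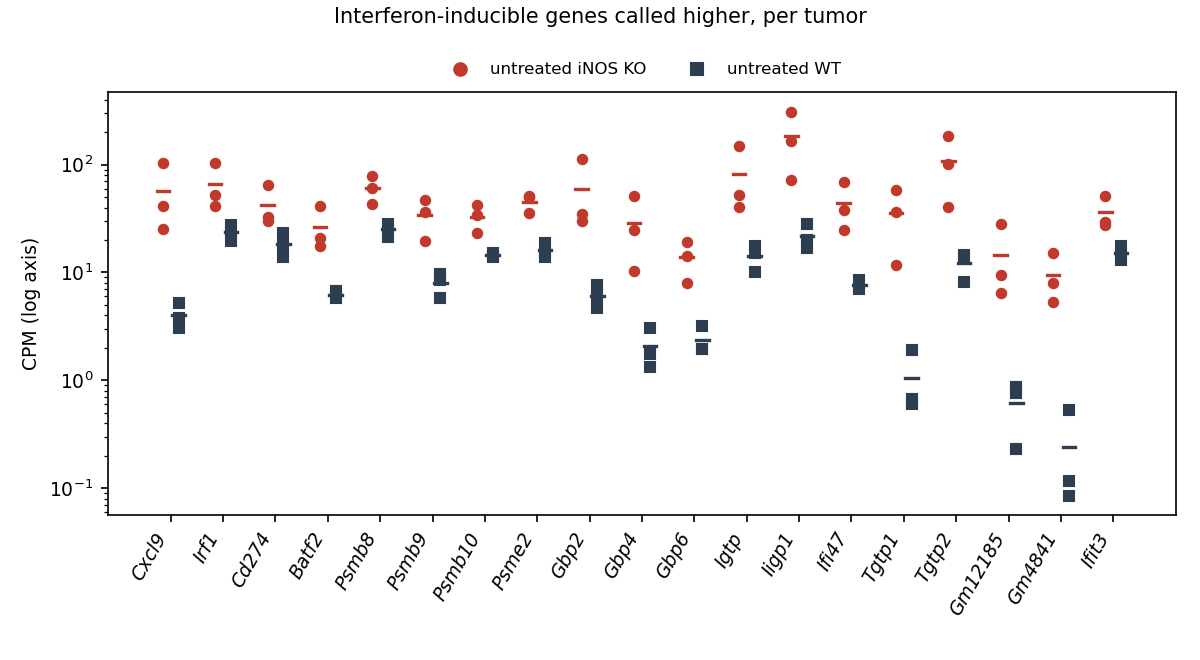
CPM on a log axis of 19 interferon-inducible genes called higher, including Psme2, in each untreated tumor, with circles for 3 iNOS KO tumors, squares for 3 WT tumors and a short bar for the mean of each group. In every gene shown the 3 KO tumors lie above the 3 WT tumors. Iigp1 reaches the highest level, at 71.5 to 310 against 16.9 to 28.2 CPM. Cxcl9 lies at 25.2 to 104.3 against 3.05 to 5.19 CPM, and Gm4841 is low at 5.35 to 15.3 against 0.0855 to 0.526 CPM.

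GTPases had the 3 largest log2 fold changes among the genes called (Gm4841 at 5.26, Tgtp1 at 5.07 and Gm12185 at 4.54). Of 14 immunity-related GTPases 7 rose (50.0%, median log2 fold change of the family 2.15), and of 9 guanylate-binding proteins 3 rose (33.3%, median 2.41), against 0.584% of all genes tested. Both lists were added after values were seen, so these shares are a description and not a test. Without KO replicate 2, 7 of the 9 guanylate-binding proteins were called, and 5 without KO replicate 1. Neither family had a member that was called lower. Tgtp2 was at 100.5, 40.9 and 186.0 CPM in KO tumors and at 8.13, 14.5 and 14.1 CPM in WT tumors (log2 fold change 3.16, SE 0.538). Tgtp1 is its near-identical neighbor (SE of the log2 fold change 0.903). Tgtp1 and Tgtp2 may share reads, and Tgtp1 also overlaps Gm12185 on the same strand, which makes the split between these 3 genes uncertain. Iigp1, a GTPase that attacks the vacuole of intracellular parasites, was at 166, 71.5 and 310 CPM in KO and at 20.1, 28.2 and 16.9 CPM in WT tumors. Igtp had 52.6, 40.6 and 149.8 CPM in KO and 15, 17.5 and 10.004 CPM in WT tumors, and its annotation overlaps that of Irgm2. Among the guanylate-binding proteins, Gbp2 was at 34.5, 30.2 and 112.5 CPM in KO and at 4.69, 7.69 and 5.96 CPM in WT tumors (log2 fold change 3.27, SE 0.614, edgeR adjusted p = 0.0172). Gbp4 had a log2 fold change of 3.81 (SE 0.739) and Gbp6 one of 2.54 (SE 0.511). In all of these genes KO replicate 2 was the lowest of the KO tumors and KO replicate 4 the highest. Apol6, an apolipoprotein L gene that is in none of the lists, showed the same order, with 9.03, 5.32 and 21.7 CPM in KO and 0.763, 0.969 and 0.231 CPM in WT tumors.

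All 3 catalytic subunits of the immunoproteasome rose. They replace the constitutive subunits when cells respond to IFN-γ, and the PA28 cap opens the same particle. Psmb9 was at 36.5, 19.7 and 47.1 CPM in KO and at 5.84, 9.60 and 8.44 CPM in WT tumors (log2 fold change 2.11, SE 0.325, edgeR adjusted p = 0.00724). Psmb8 rose by a log2 fold change of 1.26 (SE 0.25) and Psmb10 by 1.19 (SE 0.25). Psme2, a subunit of the PA28 cap, was at 50.0, 35.9 and 50.7 CPM in KO and at 14, 18.9 and 15.5 CPM in WT tumors. Its log2 fold change of 1.5 (SE 0.189) had the smallest adjusted p of the comparison, 0.00432 by edgeR. Over the whole 20S core 7 of 19 subunits rose (36.8%, against 0.584% of all genes tested). The other 4 were Psma3, Psma4, Psma5 and Psma7, and the median was 0.63. Without WT replicates 1, 2 and 3 in turn, 2, 3 and 4 of the 19 were called. Of 25 subunits of the 19S regulator and the PA28 caps, only Psme2 was called, with a median of 0.08. Both proteasome lists were added after values were seen, so these shares are a description and not a test.

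Promoter sequence is shown for 5 of the IFN-γ response genes that rose, because the GAS motif, searched here as TTCNNNGAA, and the ISRE motif, searched here as GAAANNGAAA, are the DNA elements through which interferons act. Each is the 250 bases before an annotated start in RefSeq (GRCm38.p6), 5′ to 3′ on the gene's strand. Matches to either motif on either strand are in capitals. Irf1 has 2 such windows, and the one shown was chosen by its number of matches.
Irf1 (chr11:53769764-53770013, plus strand): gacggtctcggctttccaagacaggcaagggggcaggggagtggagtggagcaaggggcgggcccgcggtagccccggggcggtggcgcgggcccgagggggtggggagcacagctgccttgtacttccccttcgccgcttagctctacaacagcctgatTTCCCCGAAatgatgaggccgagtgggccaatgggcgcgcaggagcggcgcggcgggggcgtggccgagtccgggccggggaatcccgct
Igtp (chr11:58199306-58199555, plus strand): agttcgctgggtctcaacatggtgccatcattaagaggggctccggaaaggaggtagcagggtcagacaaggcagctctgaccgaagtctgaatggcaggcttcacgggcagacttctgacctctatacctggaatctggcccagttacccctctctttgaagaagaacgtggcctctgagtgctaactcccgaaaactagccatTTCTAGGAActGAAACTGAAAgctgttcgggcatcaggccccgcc
Gbp2 (chr3:142620413-142620662, plus strand): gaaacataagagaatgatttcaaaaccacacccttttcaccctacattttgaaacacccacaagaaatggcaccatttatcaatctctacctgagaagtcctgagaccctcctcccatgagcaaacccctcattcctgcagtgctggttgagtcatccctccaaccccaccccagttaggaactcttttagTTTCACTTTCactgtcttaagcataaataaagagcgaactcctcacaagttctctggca
Psmb8 (chr17:34197945-34198194, plus strand): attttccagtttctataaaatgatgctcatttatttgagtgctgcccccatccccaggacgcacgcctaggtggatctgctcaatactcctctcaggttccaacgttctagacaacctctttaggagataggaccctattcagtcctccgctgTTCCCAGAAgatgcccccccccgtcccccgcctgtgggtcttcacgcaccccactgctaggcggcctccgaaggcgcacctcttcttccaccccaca
Cxcl9 (chr5:92328080-92328329, minus strand): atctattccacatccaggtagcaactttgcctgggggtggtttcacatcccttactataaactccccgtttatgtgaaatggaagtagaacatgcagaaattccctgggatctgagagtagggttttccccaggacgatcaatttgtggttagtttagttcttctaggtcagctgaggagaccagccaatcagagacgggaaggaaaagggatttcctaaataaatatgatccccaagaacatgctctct
Irf1 holds 1 GAS match, Igtp 1 GAS and 1 ISRE match, Gbp2 1 ISRE match in the reverse orientation and Psmb8 1 GAS match, whereas Cxcl9, which had the largest fold change of the 5, holds no match to either motif in this window. A window was found for 8 of the 12 members called, and 4 of these 8 held a match. A gene with several windows was counted as holding a match if any of them did. Over all 27025 genes with a window, 8.13% held a GAS match, 3.46% an ISRE match and 11.1% either. Of the 19 list members with a window 12 held a match (63.2%), and of the 122 genes called higher outside the list 19 held one (15.6%). A match is a description of the letters and not evidence of binding.

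Neither interferon gene examined was called, nor were Irf3 and Irf7. Ifng had 10, 0 and 14 counts in the KO tumors and 0 counts in each WT tumor, where 3 counts would be 0.0790 to 0.0867 CPM. For Ifnb1 each of the 6 libraries held 0 counts, so it did not enter the test. Irf7, which drives type I interferon production, gave 0.26 (SE 0.489), and Irf3, a constitutive sensor factor, gave -0.01 (SE 0.162). Both overlapped between the groups. Serping1, an inhibitor of complement, was the IFN-γ response gene with the lowest value at -0.57 (SE 0.686).

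Of 36 type I interferon-stimulated genes 1 was called (2.78%, against 0.584% of all genes tested). It was Ifit3, at 29.6, 27.7 and 51.1 CPM in KO and 13, 17.6 and 14.6 CPM in WT tumors. The median of the list was 0.31, with 30 of 36 above 0, where the median was 0.49 over all genes tested and -0.05 over genes with at least 1 CPM. Ifit1 gave 0.85 (SE 0.211, edgeR adjusted p = 0.0807) and Ifit3b gave 1.72 (SE 0.439, edgeR adjusted p = 0.0919). At the other end Slfn5 gave -0.61 (SE 0.582). Several Ifit genes respond to IFN-γ as well.

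Genes of antigen presentation had higher values in KO tumors without passing the test. All 9 MHC class I genes were above 0, with a median of 0.83, and in 6 of them the KO tumors were above the WT tumors without overlap (9.73% of all genes tested). H2-K1, a classical class I heavy chain, was at 349, 331 and 532 CPM in KO and at 194, 276 and 213 CPM in WT tumors (log2 fold change 0.83, SE 0.361, edgeR adjusted p = 0.299). H2-Q6 gave 1.84 (SE 0.653), H2-Q7 gave 0.54 (SE 0.545), and B2m, the light chain of all class I molecules, gave 0.60 (SE 0.400). Of 9 MHC class II genes 8 were above 0 with a median of 0.63, and each of the 9 overlapped between groups. H2-Aa gave 1.06 (SE 0.572) and H2-DMb1 gave 1.5 (SE 0.507).

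In whole-tumor RNA, a change in the number of cells of a type cannot be told apart from a change in RNA per cell. The leukocyte gene Ptprc was at 33.6, 17.3 and 34.3 CPM in KO and at 21.6, 44.2 and 23.4 CPM in WT tumors, and the groups overlapped. Macrophage genes summed to between 1183 and 1373 CPM in KO and between 902.5 and 1682 CPM in WT tumors. None of the 17 was called, the median was -0.29, and 4 were above 0. Cd163, a scavenger receptor of resident macrophages, gave -1.42 (SE 0.618, edgeR adjusted p = 0.299). Outside the list, Clec7a, the receptor for fungal β-glucans, and Mmp12, the macrophage elastase, were called higher, and both were picked out after their values were seen. Clec7a was at 21.2, 8.57 and 11.6 CPM in KO and at 3.26, 1.74 and 2.78 CPM in WT tumors, and Mmp12 rose by a log2 fold change of 1.6 (SE 0.339).

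T and NK cell genes were scarce in all 6 tumors. The 29 genes summed to between 56.8 and 81.9 CPM in KO and between 53.2 and 103.3 CPM in WT tumors, and none was called. Most of each WT sum was Thy1, which stromal cells also express. Thy1 was at 21.7, 29.5 and 42.5 CPM in KO and at 38.6, 79.8 and 53.1 CPM in WT tumors. The sums therefore do not show how the other members compare. Of the 29 genes, 27 were above 0 and 2 below. In 9 of the 29, KO lay above WT without overlap (9.73% of all genes tested). Over all 29 the median was 1.62, and 1.12 without KO replicate 1. Cd3e, a chain of the T cell receptor complex, was at 4.74, 1.93 and 3.19 CPM in KO and at 0.684, 2.14 and 1.33 CPM in WT tumors, and the groups overlapped. Cd8a was at 1.55, 1.56 and 1.02 CPM in KO and at 0, 0.114 and 0.318 CPM in WT tumors (log2 fold change 3.23, SE 1.02, edgeR adjusted p = 0.206). The groups did not overlap, at 38, 46 and 38 counts against 0, 4 and 11. Nkg7, of cytotoxic granules, gave 2.65 (SE 1.20), and Thy1 gave -0.87 (SE 0.541). The part that these cells have in the rise of the interferon-inducible genes was not tested. The 12 B and plasma cell genes had a median of 1.28, the 11 dendritic cell genes one of 1.22 and the 15 neutrophil genes one of 2.21, and none of their members was called. Without KO replicate 1, these medians were 0.19, 0.34 and 0.62. The defining neutrophil gene S100a8 was at 0 CPM in every WT tumor and in KO replicate 2.

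**Figure D2:**
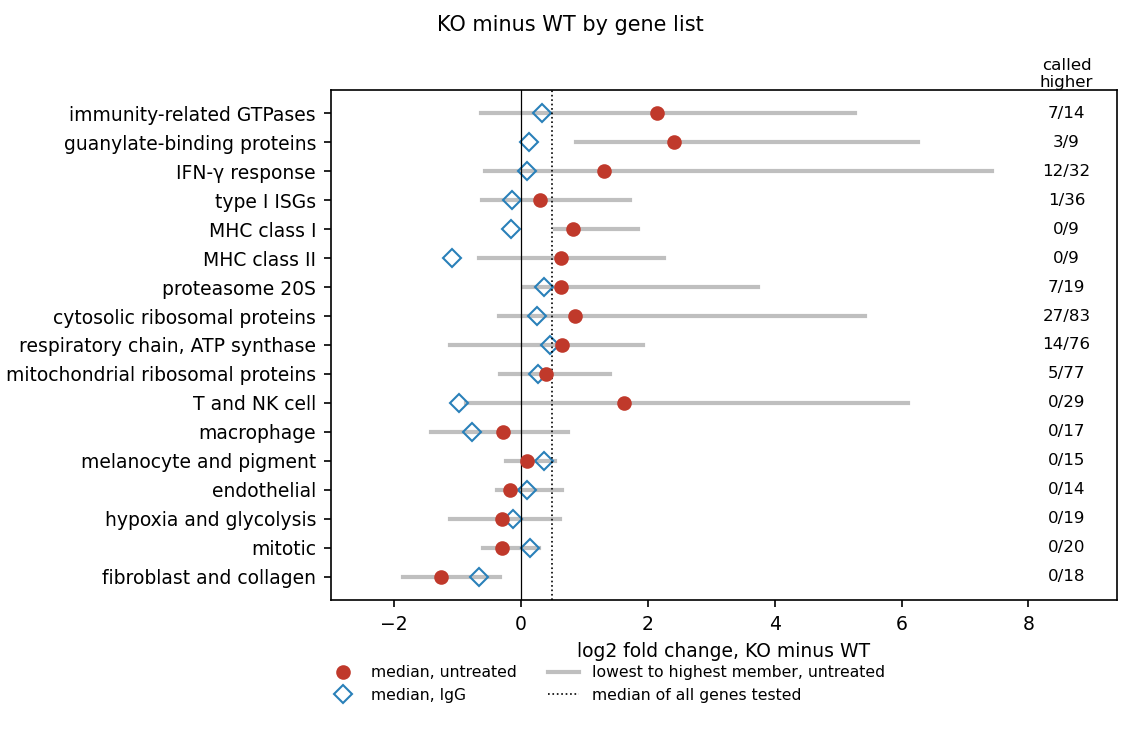
Log2 fold change of KO over WT for 17 gene lists, with a filled circle for the median of the list in untreated tumors, an open diamond for its median in IgG tumors, a gray line from the lowest to the highest member in untreated tumors, a dotted line at the median of all genes tested (0.49), and the number of members called higher of those tested at the right. Immunity-related GTPases (2.15), guanylate-binding proteins (2.41) and IFN-γ response genes (1.31) had high medians with members called, while fibroblast and collagen genes lay at the low end (-1.26) with none called.

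Ribosomal protein genes formed the second group. Cytosolic ribosomal proteins build the 40S and 60S subunits, and 27 of 83 rose in KO tumors (32.5%, against 0.584% of all genes tested) with none lower. The list has a median transcript length of 751 nt. Over genes with at least 1 CPM, 5.85% of those between 500 and 1000 nt were called higher. The list had 6 calls without WT replicate 1, 12 without WT replicate 2, 18 without WT replicate 3 and 19 without KO replicate 1. Their median was 0.86, 78 were above 0, and in 65 of them the KO tumors lay above the WT tumors without overlap (9.73% of all genes tested). Together they made up between 30710 and 38590 CPM of the KO tumors and between 17990 and 22230 CPM of the WT tumors. Rps12 was at 1629, 966 and 578 CPM in KO and at 260, 302 and 261 CPM in WT tumors (log2 fold change 1.95, SE 0.311, edgeR adjusted p = 0.00736). Rpl34 was at 346, 315 and 170 CPM in KO and at 82.9, 93.9 and 82.5 CPM in WT tumors. In both, KO replicate 4 was the lowest of the KO tumors, where it was the highest in the GTPases. Rpl22l1, a paralog of Rpl22, had a log2 fold change of 2.81 (SE 0.495), and Rpl7 was the lowest among the abundant members at -0.35 (SE 0.226). Ribosomal protein genes have many processed pseudogenes, and reads can be split between a gene and its copies. Rps10-ps1, one such copy, was at 67.7 CPM in KO replicate 2 and at 3.8 and 3.05 CPM in the other KO tumors, and Gm6988 was likewise at 13.8 CPM in KO replicate 2 against 2.21 and 1.37 CPM, with 0.237, 0.228 and 0.607 CPM in WT tumors. For Rps10-ps1 the WT tumors were at 2.13, 1.99 and 2.02 CPM, not far below KO replicates 1 and 4. In both genes each KO tumor was above each WT tumor. Both were among the genes called higher, Rps10-ps1 with a log2 fold change of 3.60 (SE 0.817, edgeR adjusted p = 0.0479) and Gm6988 with 4.01 (SE 0.912, edgeR adjusted p = 0.0484).

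Mitochondrial proteins formed the third group. Of 76 nuclear genes for respiratory chain and ATP synthase subunits 14 rose (18.4%, median 0.64), of 77 mitochondrial ribosomal proteins 5 rose (6.49%, median 0.39), and of 24 mitochondrial import subunits 3 rose (12.5%, median 0.44), against 0.584% of all genes tested. Without WT replicate 1 these calls were 6, 2 and 1. The lists, added after values were seen, have median transcript lengths of 680, 1288 and 1542 nt. Over genes with at least 1 CPM, the share called higher was 5.85% between 500 and 1000 nt and 1.37% between 1000 and 2000 nt. Cox7b, a subunit of cytochrome c oxidase, was at 369, 494 and 206 CPM in KO and at 69.6, 105.8 and 105.9 CPM in WT tumors (log2 fold change 1.93, SE 0.303, edgeR adjusted p = 0.00724). Ndufa4 was at 579, 630 and 300 CPM in KO and at 129, 141 and 129 CPM in WT tumors. Hspe1, the mitochondrial co-chaperonin, gave 1.73 (SE 0.283). The 13 genes encoded by mitochondrial DNA did not share this, with a median of -0.18 and none called. Of 61 replication-dependent histones 2 were called higher (3.28%, median 0.30), and of 23 spliceosomal Sm and Lsm proteins 2 (8.7%, median 0.13). The Sm and Lsm list was also added after values were seen. Rny1, a Y RNA, was called higher and gave 2.82 (SE 0.455), Hist1h2bb, a replication-dependent histone, gave 1.6 (SE 0.250), and Snrpe, a spliceosomal Sm protein, gave 2.07 (SE 0.326).

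Transcript length moved with the genotype in untreated tumors. Over genes with at least 1 CPM, the median log2 fold change fell from 0.82 for transcripts of 250 nt or less, through 0.42 between 500 and 1000 nt and 0.10 between 1000 and 2000 nt, to -0.25 between 5000 and 8000 nt and -0.31 above 8000 nt. The share called higher was 7.33% between 250 and 500 nt and 0% above 8000 nt. The genes called higher had a median transcript length of 877.5 nt, against 2692 nt over genes with at least 1 CPM. Relative to the mean of the 18 libraries, the 1670 genes of 1000 nt or less deviated in the median by 0.310, 0.305 and 0.256 log2 units in the KO tumors and by -0.208, -0.0365 and -0.0415 in the WT tumors. All 3 untreated KO tumors were above the other 15 libraries, the next being KO anti-PD-1 replicate 3 at 0.207. A fit in which each library's trend with transcript length was removed, chosen after seeing the data, called 56 genes higher (0.182%) and 1 lower. It called 14 of the 18 interferon-inducible genes, 9 of the 27 ribosomal proteins, 8 of the 22 mitochondrial proteins and 19 of the 106 genes outside the lists. In it the median of the IFN-γ response list was 1.40 and that of the ribosomal proteins 0.57. RNA integrity per sample was not used here, and its part in the relation with length was not tested.

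**Figure D3:**
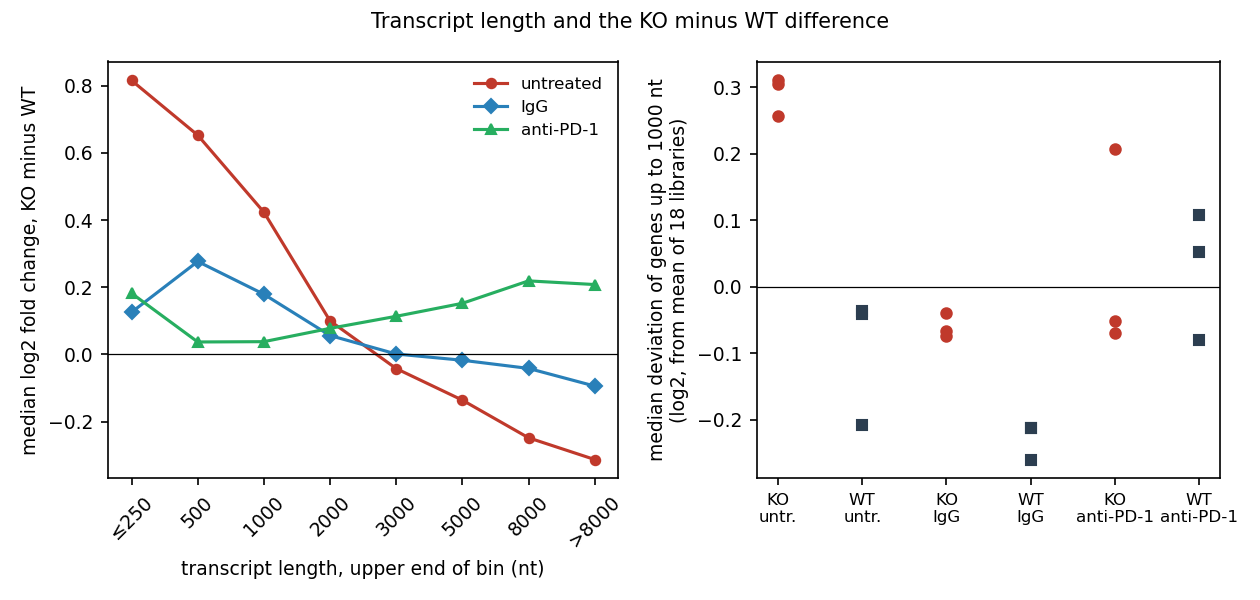
Left, median log2 fold change of KO over WT by bin of transcript length (upper end in nt) in untreated (circles), IgG (diamonds) and anti-PD-1 tumors (triangles), over genes with at least 1 CPM. The untreated line falls from 0.82 to -0.31. Right, median log2 deviation of genes of 1000 nt or less from the mean of the 18 libraries, 1 symbol per tumor with circles for KO and squares for WT, where the 3 untreated KO tumors (0.256 to 0.310) lie above all others.

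Only Praf2 was called lower in KO tumors. Praf2 encodes a membrane protein of the endoplasmic reticulum that takes part in vesicle traffic. It was at 9.19, 10.7 and 12.5 CPM in KO and at 21.2, 21.4 and 22.7 CPM in WT tumors (log2 fold change -1.01, SE 0.227, edgeR adjusted p = 0.0452). The gene Gm45208 overlaps it on the same strand. The 9 genes next by p, none of them called, include L1cam, a cell adhesion molecule of migrating cells, at 18.1, 30.3 and 36.2 CPM in KO and 50.4, 64.5 and 48.6 CPM in WT tumors (log2 fold change -0.95, SE 0.244, edgeR adjusted p = 0.0954). Nin, which anchors microtubules at the centrosome, gave -0.67 (SE 0.173). Klf12, a transcriptional repressor, gave -0.56 (SE 0.147), and Galnt4, which starts O-linked glycans, gave -0.68 (SE 0.178). Frmd6 gave -0.64 (SE 0.170) and Zfp319 gave -0.59 (SE 0.158). Gm47624 and 4930447F24Rik gave -1.13 (SE 0.270) and -1.49 (SE 0.373).

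Matrix genes had lower values in KO tumors. All 18 fibroblast and collagen genes were below 0, with a median of -1.26 and a range from -1.85 to -0.33, and none was called. Without the filter on low counts 16 of the 18 were called lower, where 218 of all 51257 genes in that fit were. The list has a median transcript length of 4024.5 nt, and genes between 3000 and 5000 nt with at least 1 CPM had a median of -0.14. Col1a1, the main chain of fibrillar collagen, was at 283, 372 and 413 CPM in KO and at 483, 2154 and 1221 CPM in WT tumors (log2 fold change -1.85, SE 0.708, edgeR adjusted p = 0.295). Col1a2 gave -1.39 (SE 0.586), Pdgfra, a receptor of fibroblasts, gave -0.90 (SE 0.312), and Fbln1, a matrix glycoprotein, gave -0.33 (SE 0.218). For Col1a1 the KO tumors lay close together, while the WT tumors differed by several times, with WT replicate 2 the highest. In 10 of the 18 the groups did not overlap, where 8.0% of all genes tested had KO below WT without overlap. Without WT replicate 2 the median was -0.77. WT anti-PD-1 replicates 3 and 4 are the libraries with the highest receptor levels. When they were left out of the fit, 8 of the 18 were called lower, against 0.677% of all genes in it. This setting leaves the 6 untreated libraries as they are and changes the estimate of the spread and the genes tested.

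**Figure D4:**
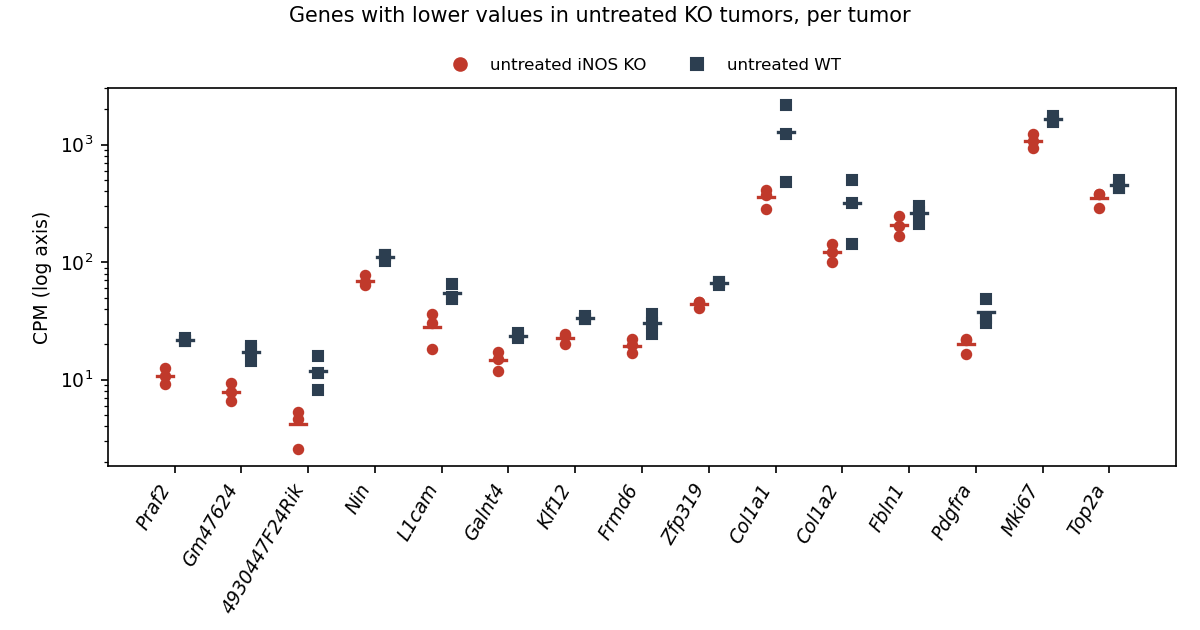
CPM on a log axis of 15 genes with lower values in untreated KO tumors, with circles for 3 iNOS KO tumors, squares for 3 WT tumors and a short bar for each mean. Praf2, the 1 gene called lower, lies at 9.19 to 12.5 CPM in KO against 21.2 to 22.7 CPM in WT tumors, and Col1a1 spreads from 483 to 2154 CPM over the WT tumors.

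Mitotic, hypoxia and stress genes were not called in either direction. The 20 mitotic genes had a median of -0.29, and in 9 of them KO lay below WT without overlap (8.0% of all genes tested). Mki67, the proliferation marker, was at 932, 1225 and 1082 CPM in KO and at 1766, 1565 and 1590.0 CPM in WT tumors (log2 fold change -0.60, SE 0.271, edgeR adjusted p = 0.299). Its transcript is 10061 nt long. Top2a, a topoisomerase with a transcript of 5221 nt, gave -0.37 (SE 0.204), and Birc5, the survivin gene with a transcript of 947 nt, gave 0.28 (SE 0.159). The 19 hypoxia and glycolysis genes had a median of -0.30, with Egln3, a prolyl hydroxylase that hypoxia induces, lowest at -1.12 (SE 0.482). The 12 NRF2 oxidative stress genes had a median of -0.22, with Gstm1, a glutathione transferase, lowest at -0.68 (SE 0.213). Of 15 immediate early genes, Fosl1 was lowest at -2.38 (SE 0.792), and it was at 0.605 CPM in WT replicate 1, below each KO tumor. The 12 integrated stress response genes had a median of 0.04 and the 14 endothelial genes one of -0.17.

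The tissue label held in all 6 tumors. The 15 melanocyte and pigment genes summed to between 18850 and 25640 CPM in KO and between 21280 and 24670 CPM in WT tumors, with a median log2 fold change of 0.10 and none called. Tyr, the enzyme that starts melanin synthesis, gave 0.43 (SE 0.195). Tissue next to the tumor differed from tumor to tumor. Skeletal muscle genes summed to up to 1025 CPM in KO and 1593 CPM in WT tumors. Acta1, skeletal muscle actin, was at 76.8 CPM in KO replicate 4 and 84.8 CPM in WT replicate 1, and at 2.45 CPM or less in the other 4. The hair keratin Krt25 was at 67.5 CPM in KO replicate 4 and at 0.368 CPM or less in the others. Adipocyte genes had a median of 2.00 over 13 genes (1.09 without KO replicate 1) with none called, led among the abundant members by Plin1, of the fat droplet, at 9.03, 3.73 and 0.991 CPM in KO and 0.553, 0.342 and 0.260 CPM in WT tumors (log2 fold change 3.55, SE 1.07, edgeR adjusted p = 0.177). Fabp4, the fatty acid carrier of adipocytes and capillaries, gave 1.14 (SE 0.413). The 16 keratinocyte and hair genes had a median of 2.62, the 7 erythroid genes one of 0.57, the 7 mast cell genes one of 0.68, the 10 Schwann and nerve genes one of -0.13 and the 20 muscle genes one of -0.01, all with no gene called. Without KO replicate 1 the keratinocyte and hair median was 2.56 with 3 genes called, and without WT replicate 1 it was 5.98 with none called. The part that these tissues have in the genes called was not tested.

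Nos2 did not separate the genotypes at the level of gene counts. It was at 4.21, 2.41 and 4.98 CPM in the untreated KO tumors and at 1.40, 3.28 and 3.56 CPM in the untreated WT tumors (log2 fold change 0.50, SE 0.577, edgeR adjusted p = 0.626), and the groups overlapped. In the IgG arm it was at 2.47, 5.92 and 5.83 CPM in KO and 1.45, 3.43 and 2.81 CPM in WT tumors, and in the anti-PD-1 arm at 5.40, 1.15 and 1.3 CPM in KO and 4.09, 7.28 and 2.87 CPM in WT tumors. Nos2 lies on chr11:78920787-78960254 (GRCm38), plus strand. A count per gene does not show which exons the reads came from, so it cannot check the deletion, and the genotype rests on the sample titles. None of the other 13 genes of nitric oxide and arginine metabolism was called. Arg1, the arginase that competes with iNOS for arginine, gave -0.40 (SE 0.503), Slc7a2, an arginine transporter of macrophages, gave -0.62 (SE 0.443), Nos3, the endothelial synthase, gave 0.47 (SE 0.308), and Gch1, which makes the cofactor of the synthases, gave 0.32 (SE 0.206). Within 5 Mb of Nos2 on either side, none of 225 genes tested was called, with a median of 0.23. Chromosome 11 as a whole held 23 of the 180 genes called higher (12.8%) and 6.9% of the genes tested. Irf1, Igtp, Ifi47, Tgtp1, Tgtp2 and Gm12185 are among the 23.

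Receptor counts in KO replicate 1 were spread thinly over many genes. Of 1502 receptor genes, 1183 had at least 1 count there, against 395 and 311 in the other KO tumors and 105 to 290 in the WT tumors. The most counted was Vmn2r76 with 127 counts, followed by Olfr54 with 102 and Olfr322 with 100. Of the 907 receptor genes tested, 887 were above 0 with a median of 5.16, and none was called. The summed level was 337 ± 462 CPM in KO and 25.2 ± 9.66 CPM in WT tumors (SD, n = 3), with KO replicate 1 known for this level when the comparison was set. Genes with few counts in the other tumors share this shift, which stands beside the medians of the T cell, B cell, neutrophil and adipocyte lists. Subtracting the receptor rate per kb from every gene in proportion to its exon length left 240 genes called higher and 2 lower, among them 17 of the 18 interferon-inducible genes.

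**Figure D5:**
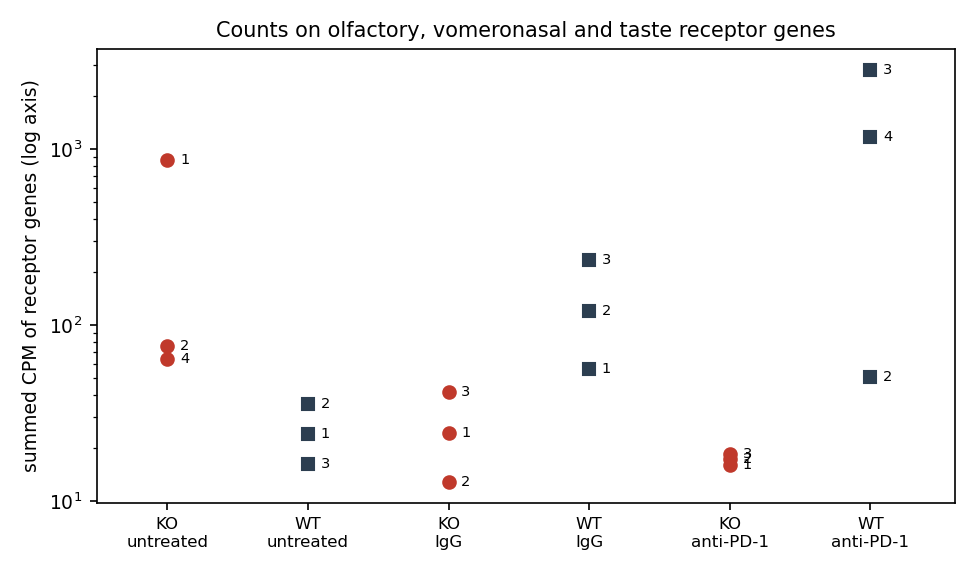
Summed CPM of 1502 olfactory, vomeronasal and taste receptor genes on a log axis in each of the 18 libraries of the experiment, by group, with circles for KO, squares for WT and the replicate number beside each symbol. Untreated KO replicate 1 (870 CPM) and WT anti-PD-1 replicates 3 and 4 (2828 and 1172 CPM) stand above the rest.

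The same genotype comparison in the other arms shares no tumor with the untreated one. Between KO and WT tumors given IgG, 0 genes were called by edgeR (0.0%), while 662 genes (2.15%) had an unadjusted p under 0.05 with KO above WT and 1269 (4.12%) with KO below, and the smallest adjusted p was 0.626. Of the 180 genes called higher in untreated tumors, 164 were above 0 in the IgG arm, and 30 were higher at an unadjusted p under 0.05. Their median there was 0.30, against -0.14 over all genes tested, most of which were thus below 0. The 180 are mostly short, with a median transcript length of 877.5 nt. Over genes with at least 1 CPM, the IgG median was 0.28 between 250 and 500 nt and 0.18 between 500 and 1000 nt. Psmb9 gave 0.12 (SE 0.315) in the IgG arm against 2.11 in untreated tumors, and Cxcl9 gave 0.86 (SE 0.575) against 3.84. The 18 interferon-inducible genes had a median of 0.51 in the IgG arm and of -1.12 in the anti-PD-1 arm, where all 18 were below 0. The ribosomal proteins called had medians of 0.24 and -0.21. In the anti-PD-1 arm 2 of the 3 WT tumors are the ones with the highest receptor levels, and the median over all genes tested was -0.91. The third WT tumor of that arm, replicate 2, had Cxcl9 at 35.6 CPM against 3.21 to 8.21 CPM in the KO tumors.

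The difference between the arms was tested directly. For the untreated minus the IgG difference, 0 of 30837 genes were called by edgeR, while 5482 genes above 0 (17.8%) and 489 below 0 (1.59%) had an unadjusted p under 0.05, and the smallest adjusted p was 0.217. DESeq2 called 229 above and 12 below 0. Among the 180 genes, 151 had an unadjusted p under 0.05 for that difference, including all 18 interferon-inducible genes, but these genes were chosen for a high value in 1 of the arms, so the count says nothing of its own. Irf1 had an untreated minus IgG difference of 1.28 (SE 0.457, edgeR adjusted p = 0.217). It was at 26.5, 23.5 and 46.1 CPM in the KO and at 24.5, 21.1 and 37.8 CPM in the WT tumors given IgG. The WT tumors of both arms overlapped, and 2 of the 3 KO tumors given IgG lay below every untreated KO tumor. The fit did not resolve whether the untreated difference and the IgG difference were unequal.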

How the data were processed

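RNA from whole B16 tumors was measured, and the 6 untreated tumors of the second experiment were compared. According to the submitters' processing notes and the study's methods, adapters were removed with cutadapt 1.8.1, strand-specific paired reads were aligned to mm10 with STAR 2.7.7a, and RSEM 1.3.0 gave a count for each gene of GENCODE vM21. The deposited values are whole-number counts per gene without normalization; the name of the table points to a different counter, and the values do not settle which was used. All 55450 gene identifiers matched vM21, from which lengths and coordinates were taken. A transcript length is that of the transcript with the longest coding sequence.

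Groups and replicate numbers were taken from the sample titles. Among the 6 samples the genotype field conflicts with the title in 3, and the treatment and time fields conflict in 6, so these fields were not used. Replicate numbers do not pair the tumors (see the closing section). Chi-square per gene between replicates was 32.3 or more, so none was a copy.

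All 18 libraries of the experiment were fitted together in edgeR 4.0.16 (R 4.3.3) with TMM, filterByExpr at a minimum count of 10, 1 coefficient per group, 12 residual degrees of freedom, and the quasi-likelihood F-test. The SE is the log2 fold change divided by the square root of F. With 3 tumors per group and a biological coefficient of variation of 0.786 estimated by edgeR, small differences are not detectable. Alternatives used DESeq2 1.42.0 and its size factors, no filter, a replicate block, receptor background, fewer libraries and transcript length. No set test was run. Summaries used Python 3.11.15 with scipy 1.17.1, and plots used matplotlib 3.10.9.

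The comparison and the gene lists were chosen with earlier results of these data known. The lists of GTPases, proteasome, respiratory chain, mitochondrial ribosome and import, and Sm proteins were added after values were seen. Genes were named by a rule: genes of nitric oxide metabolism, up to 10 genes per direction by fold change (or by p where fewer were called) with at least 1 CPM and no overlap, the highest, lowest and first members of each list, genes the study names, and the 3 top receptor genes. Other called genes were named after their values were seen. Sex-specific genes were not described. Some genes that the rule names are not reported here.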

Additional observations from a re-analysis of the deposited data

How the results depend on the processing

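The 181 genes called kept their direction in all 16 other fits, which reuse the same tumors, while the number called moved. It was 245 with DESeq2 size factors, 1349 without the filter on low counts, 144 with the replicate block, 960 with the DESeq2 Wald test, 242 with the receptor rate subtracted, 0 with that rate as a covariate (1302 higher and 1005 lower at an unadjusted p under 0.05), and 241 with only the 6 untreated libraries. Leaving out 1 untreated tumor gave between 48 (WT replicate 1) and 339 (KO replicate 4) genes, with 97 without WT replicate 2 and 92 without WT replicate 3. In fits chosen after seeing the data it was 57 with the trend in transcript length removed, 61 with KO replicate 1 also left out, and 604 without WT anti-PD-1 replicates 3 and 4. The untreated minus IgG difference had 0 calls except for 1562 without the filter, 241 with the DESeq2 Wald test, 7 when WT anti-PD-1 replicates 3 and 4 were dropped, and 0 to 135 with 1 tumor left out (83 without KO replicate 2 and 135 without KO replicate 4). Causes were not tested.

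Of the named genes, no gene that was called changed direction. Irf3, at -0.01, was 0.0504 with DESeq2 size factors, 0.0514 with the Wald test, 0.0526 with the rate subtracted, 0.0531 with only the 6 libraries and 0.187 with the covariate, and Serping1 was 0.233 with the covariate. With 1 tumor left out, Irf3 ranged from -0.104 to 0.0701, Irf7 from -0.0565 to 0.701, Slfn5 from -0.926 to 0.00907 and Serping1 from -0.919 to 0.0342. DESeq2 size factors moved the median of all genes from 0.49 to 0.56. Tumors with the same replicate number did not deviate together (median correlation -0.013 over 36 pairs, -0.193 and -0.137 for the untreated pairs), so the block, which called 144 genes higher and 0 lower, with 120 of the 181 among them, is not a paired analysis. The KO minus WT difference in receptor level was 312 CPM, 326 CPM on the raw total and 1.41 counts per kb, and 45.04 CPM without KO replicate 1. At the depth of these libraries, genes near 0.1 CPM rest on about 3 counts.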
